A study of Mus musculus with 12 samples.

Results

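The 10 genes Rigi, Ifih1, Dhx58, Tlr3, Mavs, Cgas, Sting1, Zbp1, Eif2ak2 and Irf3 encode sensors of foreign or misplaced nucleic acid, their adaptors, and a transcription factor they activate. They were taken by name from the 78275 gene IDs of the count table of a C2C12 study. All 10 had enough counts to be among the 15030 genes tested. C2C12 is an immortalised mouse myoblast line that fuses into myotubes when serum is lowered. The 12 libraries of polyadenylated RNA fall into 4 groups of 3. Induced knockdown cells were transfected with siRNA that targets Zfp143, which encodes ZNF143, a zinc finger activator of transcription, and were harvested at day 5 in medium with 1% horse serum. Induced control cells received a non-targeting siRNA and the same medium. Uninduced knockdown and uninduced control cells received the same siRNAs and were harvested 24 hours after transfection in medium with 10% fetal bovine serum. All 12 libraries come from cells transfected with Lipofectamine 3000 and an siRNA, which is itself a short double-stranded RNA, and no untransfected cells were analysed here. Induced and uninduced cells differ in medium, in serum and in time since transfection, and these cannot be told apart. Whether the 3 libraries of each group are separate cultures is not stated in the labels, and the p-values therefore measure only the spread between these samples, which may be technical.

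Cells recognise viral or misplaced nucleic acid with a small set of receptors. RIG-I (Rigi) and MDA5 (Ifih1) bind double-stranded RNA in the cytosol and signal through the mitochondrial adaptor MAVS, while LGP2 (Dhx58) belongs to the same helicase family but lacks their signalling domains. TLR3 binds double-stranded RNA in endosomes and signals through TRIF (Ticam1), and cGAS binds cytosolic DNA and makes the second messenger cGAMP, which activates STING. These routes meet at the kinase TBK1 and the transcription factor IRF3, which switches on type I interferon. PKR (Eif2ak2) binds double-stranded RNA and phosphorylates the translation factor eIF2, and ZBP1 binds nucleic acid in the left-handed Z form and can start necroptosis through RIPK3. Interferon in turn raises the transcription of several of the receptors, through a promoter element called ISRE.

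Library totals ranged between 13520900 and 18272000 estimated counts in induced knockdown, 18155400 and 18482800 in induced control, 18060800 and 18890000 in uninduced knockdown, and 18556800 and 19068300 in uninduced control libraries. A pair of libraries stood apart. Induced knockdown replicate 1 was the shallowest and had 1.95% of its counts on mitochondrial genes, against 3.44% and 3.47% in the other induced knockdown libraries. Uninduced control replicate 3 had 6.02% on mitochondrial genes, against 2.63% and 2.90% in the other uninduced control libraries. Levels between groups are given as CPM, a count relative to its library's total, with totals scaled by TMM, a method that sets the bulk of genes equal between libraries. Zfp143 itself had 12.2, 11.9 and 10.1 CPM in uninduced knockdown libraries, against 23.2, 27.8 and 39.8 CPM in uninduced control libraries, and fell to 37.7% of control (log2 fold change -1.41, SE 0.183, adjusted p = 6.12e-05, edgeR quasi-likelihood test with Benjamini-Hochberg adjustment, which gives every adjusted p below unless another tool is named). At day 5 it had 14.7, 16.8 and 19.7 CPM in induced knockdown and 19.7, 19.3 and 19.3 CPM in induced control libraries, and did not pass the test (log2 fold change -0.18, SE 0.181, adjusted p = 0.646). The uninduced libraries thus follow their labels, while in induced cells the 95% interval of the Zfp143 change has the bounds -0.57 and 0.20 on the log2 scale. The other cell types that could carry sensor genes were checked by markers. Adgre1, which defines macrophages, and Siglech, of plasmacytoid dendritic cells, were at 0 in all 4 groups. Ptprc, the pan-leukocyte marker, had 0, 1 and 3 counts in induced knockdown and 6, 1 and 1 counts in uninduced knockdown libraries, and was at 0 in both control groups. The summed TPM of the 15 macrophage and leukocyte markers was 32.1 to 35.8 in induced knockdown, 23.3 to 24.7 in induced control, 28.5 to 32.1 in uninduced knockdown and 22.8 to 25.6 in uninduced control libraries, with Cd14 as the largest member. TPM is a level divided by transcript length and scaled to the same sum in every library. Summed TPM of the 8 fibroblast markers was 514 to 669 in induced knockdown and 848 to 935 in induced control, against 25.8 to 28.8 in uninduced knockdown and 23.0 to 27.5 in uninduced control libraries. The 10 myoblast and myotube markers summed to 3160 to 3990, 8590 to 9810, 170 to 195 and 141 to 238 TPM in the same order of groups. The fibroblast and myotube sums move with induction, as several sensor genes do. They are also lower with the siRNA in induced cells, where 1 of the 10 genes, Zbp1, was called lower and 9 were not called. The leukocyte sum is higher with the siRNA in both states, without overlap. Of 4 tested leukocyte markers, 2 were higher with the siRNA in uninduced cells and 1 in induced cells. Of all tested genes, 15.4% were higher in uninduced and 3.73% in induced cells. Csf1r, the receptor of a macrophage growth factor, had 3.42, 3.66 and 3.22 CPM in uninduced knockdown and 1.25, 0.329 and 0.131 CPM in uninduced control libraries (log2 fold change 2.54, SE 0.497, adjusted p = 0.00120). Cd68, a lysosomal protein abundant in macrophages, had 5.59, 4.49 and 7.06 CPM in uninduced knockdown and 1.85, 0.878 and 1.84 CPM in uninduced control libraries (log2 fold change 1.91, SE 0.324, adjusted p = 0.000503). Cd14 was the marker higher in induced cells (log2 fold change 0.62, adjusted p = 0.0241), and its value in uninduced cells was 0.05 (adjusted p = 0.852). The part of these markers in the results was not tested. In bulk RNA, fewer cells of a type and less RNA per cell cannot be told apart.

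RefSeq's table of promoter windows (build GRCm38.p6), each spanning 250 bases before to 50 after a gene's start, held 7 of the 10 genes and none of Dhx58, Zbp1 and Sting1. Windows were searched on both strands for the ISRE core (GAAA, any 2 bases, GAAA), the STAT site core TTCNNNGAA and the ZNF143 site core ACTACAA, where N is any base. After the Irf3 sequence had been read, another stretch of the ZNF143 motif (CCCAG, any base, ATGC) was added to the search. No pair of these motifs overlapped in a printed window. The 5 windows with a match are printed 5′ to 3′ on the gene's own strand, with matches in capitals. They are shown because they hold a match. All 5 genes moved with induction, as did Tlr3, whose window held none. In uninduced knockdown cells, where Zfp143 itself was lower, Irf3 fell and Cgas did not pass (log2 fold change 0.02, adjusted p = 0.930). A link between matches and levels of these genes was not tested. The Rigi window is chr4:40239776-40240075 on the minus strand, Ifih1 chr2:62646206-62646505 on the minus strand, Eif2ak2 chr17:78882523-78882822 on the minus strand, Irf3 chr7:44997398-44997697 on the plus strand and Cgas chr9:78443188-78443487 on the minus strand.
Rigi: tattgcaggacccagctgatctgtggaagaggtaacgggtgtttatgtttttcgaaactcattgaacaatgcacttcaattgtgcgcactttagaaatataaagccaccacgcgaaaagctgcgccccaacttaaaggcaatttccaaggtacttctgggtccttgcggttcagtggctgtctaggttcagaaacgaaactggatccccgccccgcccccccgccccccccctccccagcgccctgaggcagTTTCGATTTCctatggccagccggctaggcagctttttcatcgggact
Ifih1: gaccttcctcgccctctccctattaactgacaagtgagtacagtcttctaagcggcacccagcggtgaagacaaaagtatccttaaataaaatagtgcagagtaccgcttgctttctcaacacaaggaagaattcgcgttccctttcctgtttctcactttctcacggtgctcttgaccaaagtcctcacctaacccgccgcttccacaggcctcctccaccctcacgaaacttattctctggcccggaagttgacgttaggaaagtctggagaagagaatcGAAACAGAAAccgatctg
Eif2ak2: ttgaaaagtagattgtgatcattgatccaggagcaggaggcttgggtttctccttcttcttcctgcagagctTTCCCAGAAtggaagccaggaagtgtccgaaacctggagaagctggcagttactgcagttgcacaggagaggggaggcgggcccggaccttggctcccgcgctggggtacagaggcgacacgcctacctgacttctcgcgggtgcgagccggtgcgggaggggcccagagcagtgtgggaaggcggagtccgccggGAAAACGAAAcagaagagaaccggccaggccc
Irf3: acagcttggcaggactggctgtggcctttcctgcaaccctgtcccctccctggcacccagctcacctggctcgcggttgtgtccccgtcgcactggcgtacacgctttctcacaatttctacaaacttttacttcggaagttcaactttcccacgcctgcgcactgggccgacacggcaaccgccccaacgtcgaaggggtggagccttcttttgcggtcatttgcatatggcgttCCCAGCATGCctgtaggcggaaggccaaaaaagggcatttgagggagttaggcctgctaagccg
Cgas: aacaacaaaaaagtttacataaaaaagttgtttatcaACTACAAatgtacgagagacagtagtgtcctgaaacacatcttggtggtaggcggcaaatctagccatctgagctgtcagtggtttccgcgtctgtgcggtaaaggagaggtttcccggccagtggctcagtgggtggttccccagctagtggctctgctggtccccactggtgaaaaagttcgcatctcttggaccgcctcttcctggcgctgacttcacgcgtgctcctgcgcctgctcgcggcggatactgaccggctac
The ISRE core was present in 3 of the 7 windows, against 3.44% of all 32851 windows in the table. It lay at bases 3 to 12 after the start in Rigi, where the match is on the opposite strand, at 33 to 42 in Ifih1 and at 19 to 28 in Eif2ak2. Eif2ak2 also held the STAT core at bases -178 to -170, found in 8.3% of all windows. Cgas held ACTACAA at -213 to -207, found in 3.24% of all windows. Irf3 held the added stretch at -14 to -5, found in 1.0% of all windows. The windows of Mavs and Tlr3 held none of the 4 motifs. A match describes letters in these windows and is not evidence of binding.

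Per transcript length, the order of the 10 genes was turned over by induction. In uninduced control cells the adaptor Mavs (13.8 ± 3.08 TPM, SD, n = 3) and the factor Irf3 (13.4 ± 1.71 TPM) led, and their ranges overlapped. Cgas (7.85 TPM) and Eif2ak2 (7.22 TPM) came next and overlapped each other, as did Rigi (2.33 TPM) and Sting1 (1.66 TPM). Tlr3, Dhx58 and Ifih1 were at or under 0.436 TPM with overlapping neighbours, and Zbp1 was at 0. In uninduced knockdown cells Mavs led alone at 13.7 ± 0.524 TPM, and Irf3 (8.07 TPM) overlapped Cgas (7.25 TPM). In induced control cells Zbp1 led at 205.8 ± 30.4 TPM, followed by Rigi (89.0 TPM), Dhx58 (87.5 TPM) and Eif2ak2 (84.1 TPM), which overlapped as neighbours. Irf3 (30.7 TPM) and Mavs (20.3 TPM) lay below them, then Tlr3 (16.1 TPM) and Ifih1 (15.9 TPM), which overlapped, then Sting1 (5.85 TPM) and last Cgas (2.10 TPM). Induced knockdown cells kept Zbp1 (141.4 ± 15.1 TPM) first and Cgas (2.88 TPM) last. The 10 genes summed to 485 to 564 TPM in induced knockdown and 536 to 591 TPM in induced control libraries, against 40.7 to 41.6 TPM in uninduced knockdown and 38.6 to 51.9 TPM in uninduced control libraries. The summed level thus separated induced from uninduced libraries without overlap, whichever siRNA was used.

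**Figure D1:**
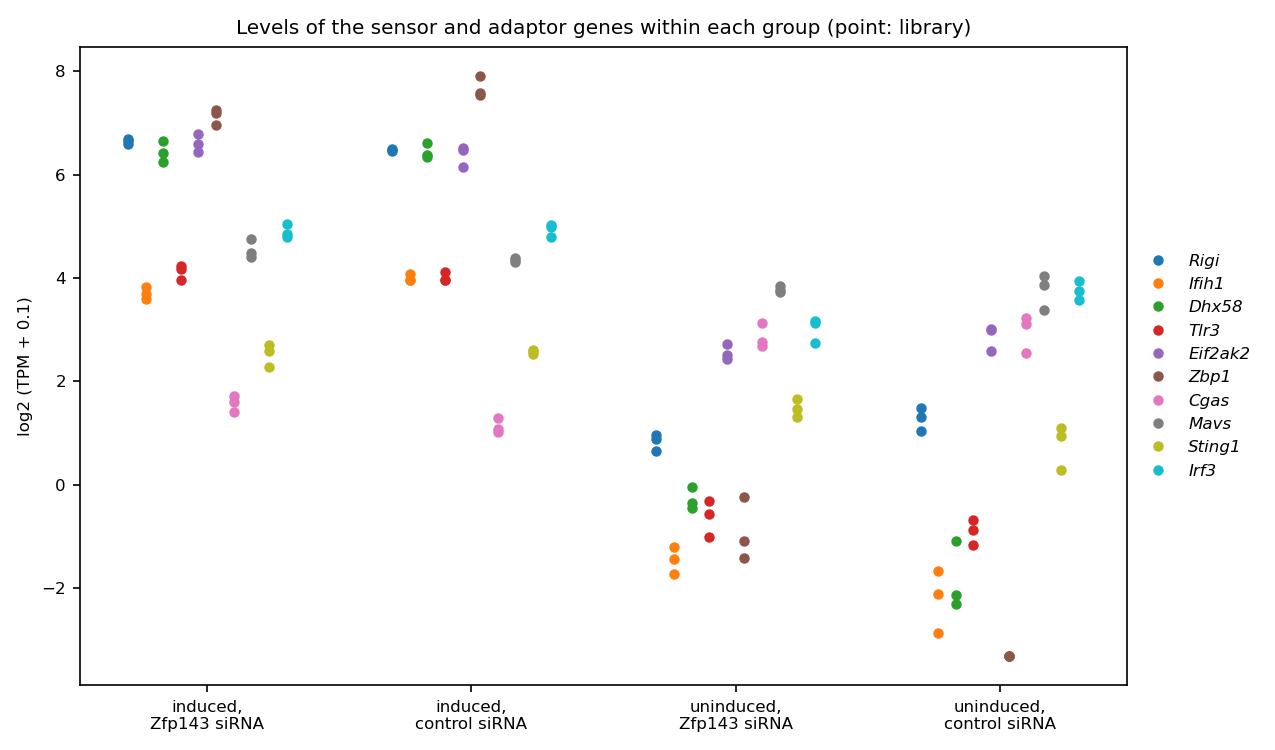
Level of each of the 10 genes per transcript length, as log2(TPM + 0.1), in the 4 groups, with a point for each library. In induced cells Zbp1 lies highest and Cgas lowest, and in uninduced control cells Mavs and Irf3 lie highest and Zbp1 is at 0.

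With the Zfp143 siRNA, induction raised 7 of the 10 genes and lowered 1, while 66.1% of all tested genes were called, 36% higher and 30.1% lower. The median log2 fold change was 3.85 over the 10 genes and 0.10 over all genes. With the control siRNA, induction raised 8 and lowered 1, while 64.1% of all tested genes were called, 33.2% higher and 30.9% lower, and the medians were 3.99 and 0.03. Library size as the only scaling put 66.2% of the genes called with the Zfp143 siRNA on the higher side, against 54.4% with TMM. The 5 receptors of double-stranded RNA and Zbp1 made up most of the rise, Cgas was the gene that fell with either siRNA, and Mavs passed in neither.

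Rigi had 198.5, 219 and 209 CPM in induced knockdown and 211, 198 and 203 CPM in induced control libraries, against 5.935, 4.605 and 5.88 CPM in uninduced knockdown and 5.325, 7.025 and 9.525 CPM in uninduced control libraries. Every induced library lay far above every uninduced one, and the siRNA groups overlapped in CPM within each state. The log2 fold change of induction was 5.25 with the Zfp143 siRNA (SE 0.170, adjusted p = 8.23e-12), which is 38.1-fold, and 4.81 with the control siRNA (SE 0.166, adjusted p = 9.07e-12), which is 28.1-fold. Ifih1, the receptor for long double-stranded RNA, had 25.5, 36.1 and 31.4 CPM in induced knockdown and 45.8, 40.7 and 41.9 CPM in induced control libraries, against 1.03, 0.709 and 1.41 CPM in uninduced knockdown and 0.761, 0.439 and 0.131 CPM in uninduced control libraries. Its uninduced control values rest on 14, 8 and 2 counts. It rose by 4.87 on the log2 scale with the Zfp143 siRNA (SE 0.291, adjusted p = 8.50e-10) and by 6.52 with the control siRNA (SE 0.379, adjusted p = 9.22e-11).

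Dhx58 rose furthest among the genes with counts in every group. It had 125.3, 113 and 95.4 CPM in induced knockdown and 138, 117 and 103 CPM in induced control libraries, against 1.37, 1.18 and 1.70 CPM in uninduced knockdown and 0.163, 0.604 and 0.329 CPM in uninduced control libraries. It rose 78.0-fold with the Zfp143 siRNA (log2 fold change 6.29, SE 0.233, adjusted p = 8.77e-12) and 320.0-fold with the control siRNA (8.32, SE 0.368, adjusted p = 1.58e-12). The library kit did not keep strand, and an antisense gene, Dhx58os, overlaps Dhx58 with 77.4 summed counts in induced knockdown and 79.6 in induced control libraries, where Dhx58 itself had 6073 and 6839. Because the helicases rose unequally, their ratio moved: LGP2 to RIG-I transcripts, in TPM, averaged 0.869 in induced knockdown and 0.983 in induced control, against 0.429 in uninduced knockdown and 0.081 in uninduced control libraries. MDA5 to RIG-I transcripts averaged 0.129, 0.178, 0.158 and 0.0578 in the same groups.

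Tlr3, the endosomal receptor, had 24.7, 40.4 and 34.2 CPM in induced knockdown and 35.1, 34.2 and 33.7 CPM in induced control libraries, against 2.17, 1.65 and 1.13 CPM in uninduced knockdown and 0.815, 1.21 and 1.58 CPM in uninduced control libraries. The low induced knockdown value is that of replicate 1, the shallow library. Induction raised Tlr3 by 4.32 on the log2 scale with the Zfp143 siRNA (SE 0.252, adjusted p = 1.13e-09) and by 4.85 with the control siRNA (SE 0.272, adjusted p = 4.12e-10). Eif2ak2, the kinase PKR, was already measurable before induction, with 219, 230 and 234 CPM in induced knockdown and 198, 229 and 244 CPM in induced control libraries, against 21.6, 24.2 and 19.6 CPM in uninduced knockdown and 24.2, 23.4 and 27.5 CPM in uninduced control libraries. It rose by 3.39 with the Zfp143 siRNA (SE 0.122, adjusted p = 1.61e-11) and by 3.16 with the control siRNA (SE 0.122, adjusted p = 2.24e-11), both on the log2 scale, the smallest fitted rise among the 5 double-stranded RNA receptors.

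Zbp1 went with the receptors and had the widest range of the 10 genes. It had 79.6, 72.5 and 61.7 CPM in induced knockdown and 131, 107 and 97.1 CPM in induced control libraries. Uninduced knockdown libraries held 3, 2 and 6 counts (0.171, 0.118 and 0.339 CPM) and uninduced control libraries none. The log2 fold change of induction with the Zfp143 siRNA was 8.35 (SE 0.433, adjusted p = 2.70e-11). Against a floor of 3 counts per library, its level was at least 639-fold higher in induced control than in uninduced control cells (adjusted p = 6.54e-12). Ripk3, the kinase through which ZBP1 acts in necroptosis, was named here after its values were seen, and had too few counts to be tested, at most 2 in any library.

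Of the DNA arm, Cgas fell with induction under either siRNA, while Sting1 rose with the control siRNA and did not pass with the Zfp143 siRNA. Cgas had 4.72, 6.83 and 5.76 CPM in induced knockdown and 4.42, 4.16 and 4.88 CPM in induced control libraries, against 20.6, 25.6 and 20.3 CPM in uninduced knockdown and 23.4, 20.9 and 21.02 CPM in uninduced control libraries. All 6 induced libraries lay below all 6 uninduced ones, and Cgas fell to 26.2% of the uninduced level with the Zfp143 siRNA (log2 fold change -1.93, SE 0.160, adjusted p = 8.13e-08) and to 20.6% with the control siRNA (-2.28, SE 0.163, adjusted p = 1.37e-08). Its estimated counts were not whole numbers in any library, and those of Dhx58 were not in some induced libraries. Whether reads were shared with other loci was not tested. Sting1, the adaptor that cGAMP activates, had 6.64, 6.83 and 5.20 CPM in induced knockdown and 6.97, 7.33 and 6.61 CPM in induced control libraries, against 5.42, 4.31 and 3.96 CPM in uninduced knockdown and 1.58, 2.85 and 4.01 CPM in uninduced control libraries. With the Zfp143 siRNA it did not pass (log2 fold change of induction 0.45, SE 0.256, adjusted p = 0.137) and the groups overlapped in CPM, though scaling by library size alone gave 0.70 and an adjusted p of 0.0149. It rose with the control siRNA (1.32, SE 0.265, adjusted p = 0.000479). cGAS transcripts per STING transcript, in TPM, averaged 0.519 in induced knockdown and 0.358 in induced control, against 2.74 in uninduced knockdown and 5.21 in uninduced control libraries.

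Mavs, the adaptor shared by RIG-I and MDA5, was the steadiest of the 10 in TMM-scaled CPM, with 36.3, 31.8 and 28.3 CPM in induced knockdown, 30.2, 30.8 and 28.0 CPM in induced control, 31.4, 27.8 and 28.5 CPM in uninduced knockdown and 28.4, 25.4 and 28.1 CPM in uninduced control libraries. Its log2 fold change of induction was 0.14 with the Zfp143 siRNA (95% interval -0.13 to 0.40, adjusted p = 0.343) and 0.12 with the control siRNA (-0.15 to 0.38, adjusted p = 0.417). Scaled by library size alone, the value with the Zfp143 siRNA was 0.39 (adjusted p = 0.0222), and that scaling moved the median of all genes to 0.35 with the Zfp143 siRNA and 0.21 with the control siRNA. In TPM, Mavs was 21.1 to 26.8 in induced knockdown and 19.8 to 20.7 in induced control, against 13.2 to 14.2 in uninduced knockdown and 10.35 to 16.35 in uninduced control libraries, so that scale separates the states. Irf3 had 34.2, 29.0 and 26.4 CPM in induced knockdown and 34.6, 28.7 and 30.4 CPM in induced control libraries, against 11.7, 8.09 and 12.9 CPM in uninduced knockdown and 17.1, 18.8 and 20.4 CPM in uninduced control libraries. It rose by 1.45 with the Zfp143 siRNA (SE 0.170, adjusted p = 3.27e-06) and by 0.73 with the control siRNA (SE 0.166, adjusted p = 0.00128) on the log2 scale. Reads of Bcl2l12, which overlaps Irf3 on the opposite strand with 220 summed counts in induced knockdown and 229 in induced control libraries, could not be separated by strand. Irf3 itself had 1629 and 1789 summed counts in these groups.

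**Figure D2:**
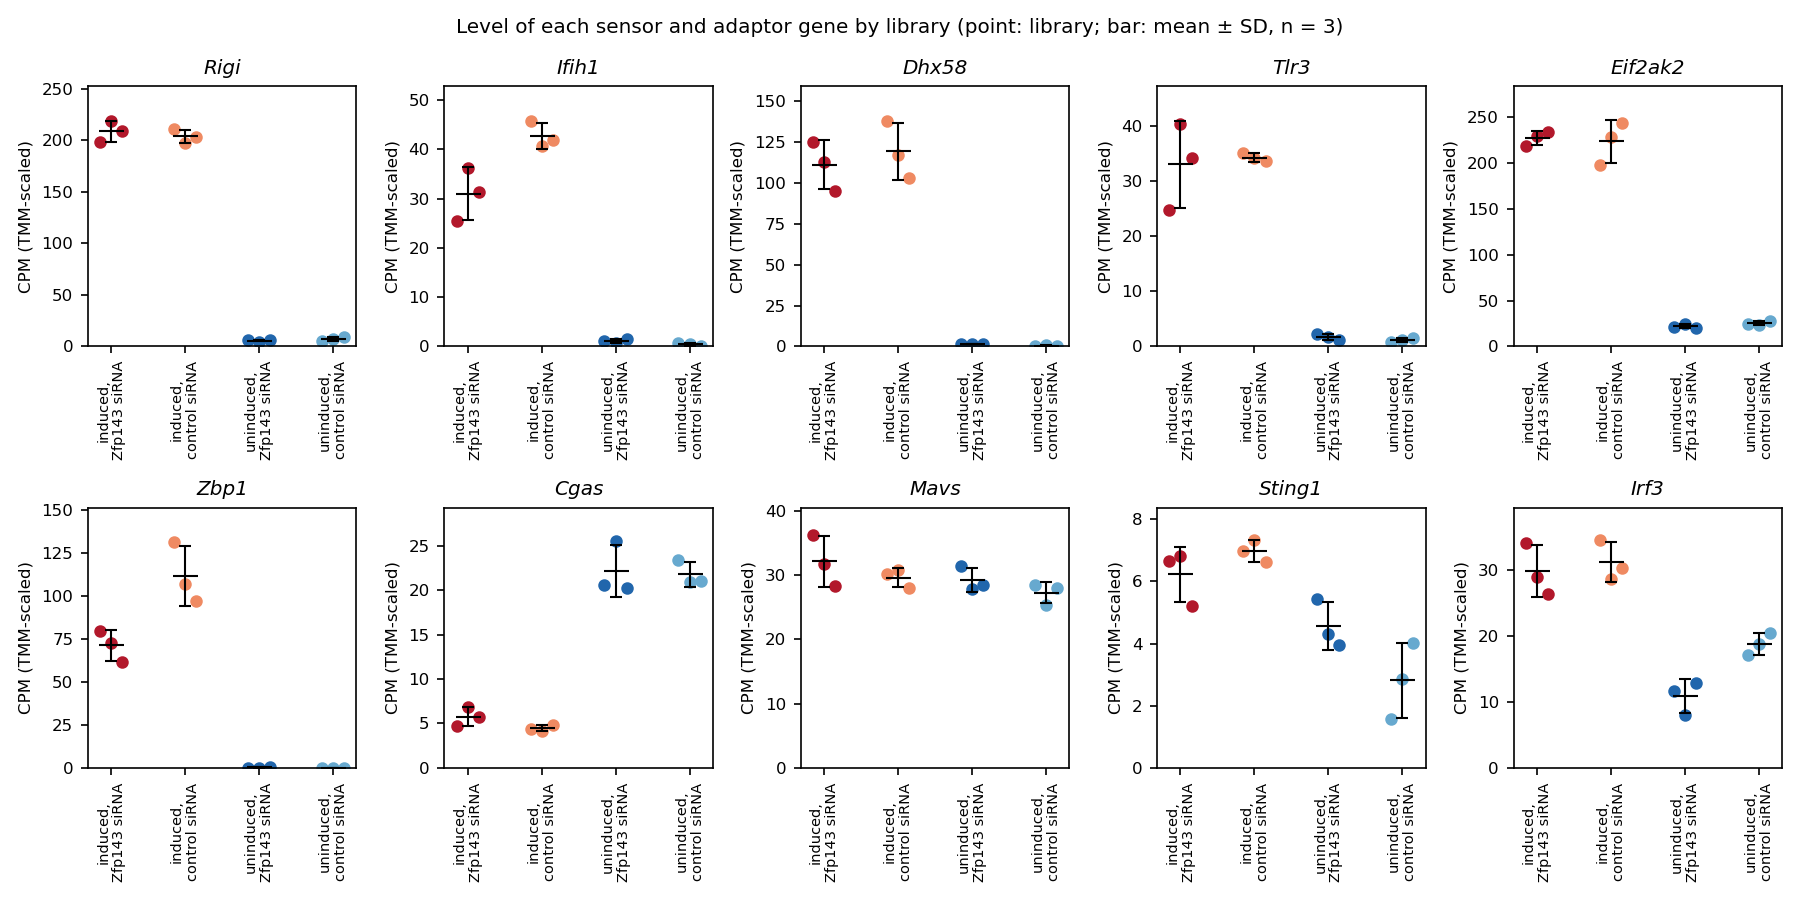
CPM of each of the 10 genes in each of the 12 libraries on linear axes that start at 0, 1 panel a gene, with a point for each library and a bar for the mean ± SD of 3 libraries. The columns are induced knockdown, induced control, uninduced knockdown and uninduced control. Rigi, Ifih1, Dhx58, Tlr3, Eif2ak2 and Zbp1 lie higher in all induced libraries, Cgas lies lower, and Mavs overlaps between the groups.

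In uninduced cells, where the siRNA had lowered its target, 4 of the 10 genes were called, 3 higher and 1 lower, while 32.5% of all tested genes were called, 15.4% higher and 17.1% lower. The share of the 10 is therefore near that of all genes. The 10 genes had a median log2 fold change of 0.29 (0.18 where Zbp1 is set at its bound), against -0.04 over all genes. Dhx58 and Ifih1 rose and Irf3 fell. The third higher call is Zbp1, which passed the count filter only through the induced libraries, where it is high, and it is given below as counts. With only the 6 uninduced libraries modelled, 2 of the 10 genes were called, Dhx58 (adjusted p = 0.0125) and Irf3 (adjusted p = 0.0172), and Zbp1 was not tested. That model tested 13341 genes, and the shares of all genes given above are not those of that model. The 2 calls are therefore not set against a share. The leukocyte markers Csf1r and Cd68 were higher in the same knockdown libraries, and their part in these values was not tested.

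Dhx58 was higher in all 3 knockdown libraries, with 24, 20 and 30 counts, against 3, 11 and 5 counts in control libraries. Its log2 fold change was 1.93 (SE 0.404, 95% interval 1.07 to 2.79, adjusted p = 0.00122), or 3.82-fold, and it was called under all 22 alternative settings. Ifih1 had 18, 12 and 25 counts in knockdown libraries, against 14, 8 and 2 in control libraries, and the lowest knockdown library lies within the control range. Its log2 fold change of 1.18 (SE 0.434, adjusted p = 0.0411) lost its call under 12 of 22 alternatives, among them limma-voom (adjusted p = 0.0724) and leaving out uninduced control replicate 3 (0.81, adjusted p = 0.114), uninduced control replicate 2 (1.14, adjusted p = 0.105) or uninduced knockdown replicate 3 (0.91, adjusted p = 0.178). A fit with replicate number as a block gave an adjusted p of 0.0543. The call of Zbp1 in the model of all 4 groups (adjusted p = 0.00715) rests on 11 summed counts in knockdown against 0 in control libraries, which is at least 1.20-fold higher against the floor of 3 counts per library.

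Irf3 was lower in all 3 knockdown libraries, with no overlap, at 58.2% of control (log2 fold change -0.78, SE 0.172, 95% interval -1.15 to -0.41, adjusted p = 0.00318). The call held under all 22 alternatives, whose values lay between -0.92 and -0.61. Correcting for transcript length, which was shorter on average in the knockdown libraries (1524 to 1745 bases, against 1660 to 1857 in control libraries), gave -0.64 with an adjusted p of 0.00595. Bcl2l12, its neighbour on the opposite strand, had 115 summed counts in knockdown and 94 in control libraries, while Irf3 had 571 and 969.

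Sting1 stood close to the threshold (log2 fold change 0.71, SE 0.271, adjusted p = 0.0569). It was called under 8 of 22 alternatives, among them DESeq2 (adjusted p = 0.0280) and leaving out uninduced control replicate 3, 1 of the libraries that stood apart (1.05, adjusted p = 0.00544), whose 4.01 CPM overlaps the knockdown range. Rigi had a log2 fold change of -0.40 (95% interval -0.80 to -0.01, adjusted p = 0.106), which passed without uninduced control replicate 1 (-0.59, adjusted p = 0.0182). Tlr3 (0.48, adjusted p = 0.266), Eif2ak2 (-0.20, adjusted p = 0.241), Cgas (0.02, adjusted p = 0.930) and Mavs (0.10, adjusted p = 0.579) did not pass in log2 fold change. For Mavs and Cgas the 95% intervals were -0.17 to 0.36 and -0.30 to 0.35, so changes beyond those bounds were not seen. CPM ranges of each of these 4 genes and of Rigi and Sting1 overlapped between the groups. In TPM, Rigi (1.47 to 1.83 in knockdown, 1.94 to 2.68 in control libraries) and Sting1 (2.36 to 3.06 in knockdown, 1.11 to 2.045 in control libraries) did not overlap.

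**Figure D3:**
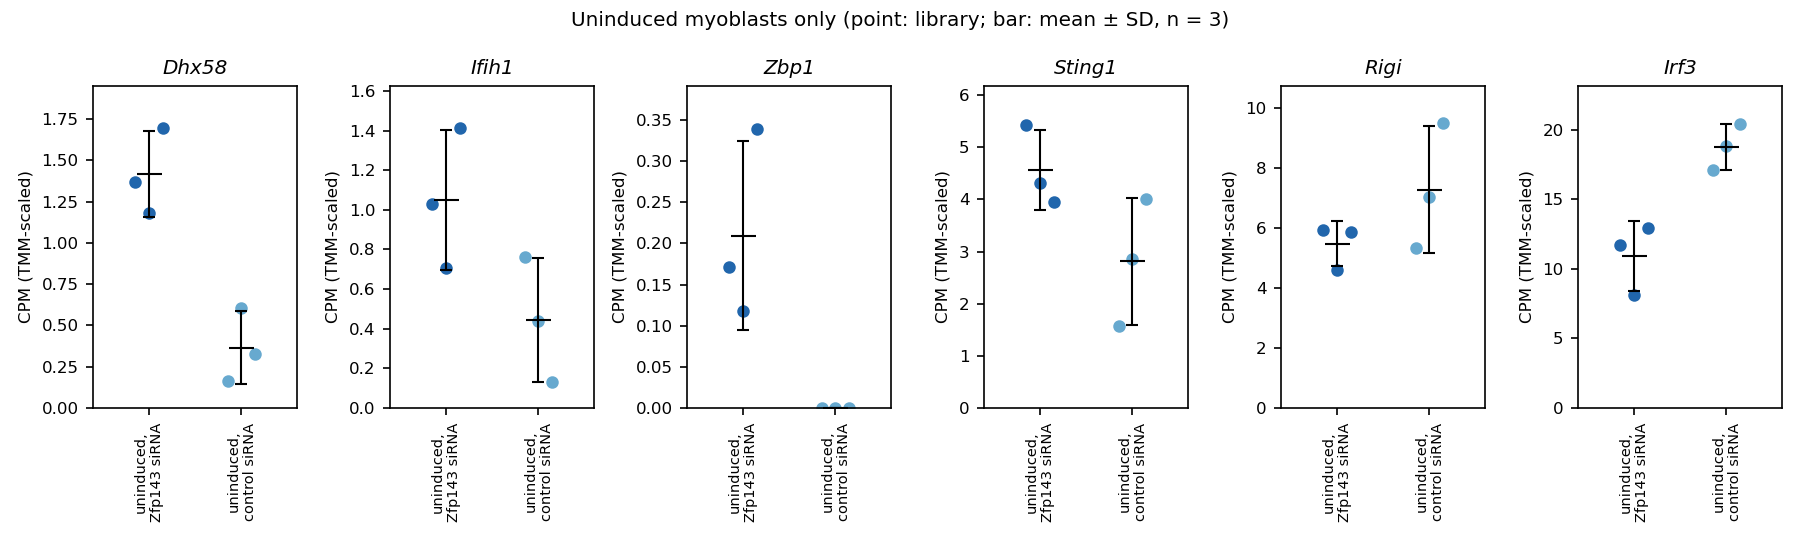
CPM of 6 of the genes in the 3 uninduced knockdown and 3 uninduced control libraries, with a point for each library and a bar for the mean ± SD. Dhx58 and Zbp1 lie higher and Irf3 lower in every knockdown library, while Ifih1, Sting1 and Rigi overlap.

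After induction the siRNA groups lay close together. With edgeR 0 of the 10 genes were higher and 1, Zbp1, was lower, while 9.49% of all tested genes were called, 3.73% higher and 5.77% lower. At an unadjusted p under 0.05, 1 gene (Cgas) was higher, and DESeq2 and limma-voom each called 0 higher. The median log2 fold change was -0.06 over the 10 genes and -0.03 over all. Library size as the only scaling put 51.9% of all called genes on the higher side, against 39.2% with TMM.

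Zbp1 had 79.6, 72.5 and 61.7 CPM in induced knockdown libraries, all below the 131, 107 and 97.1 CPM of induced control libraries. It stood at 63.7% of control (log2 fold change -0.65, SE 0.154, 95% interval -0.98 to -0.32, adjusted p = 0.0160). The call was lost without induced control replicate 1 (-0.52, adjusted p = 0.101) or 2 (-0.68, adjusted p = 0.0523), and without induced knockdown replicate 2 (-0.66, adjusted p = 0.0569) or 3 (-0.55, adjusted p = 0.0774). Ifih1 also lay lower in every knockdown library without passing the test (log2 fold change -0.46, SE 0.200, adjusted p = 0.201). Its lowest value is that of replicate 1, and without that library the log2 fold change was -0.34 (adjusted p = 0.420).

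The other genes did not pass. Cgas had a log2 fold change of 0.37 (adjusted p = 0.241). The intervals of Rigi (-0.29 to 0.36), Eif2ak2 (-0.23 to 0.28), Mavs (-0.15 to 0.38), Irf3 (-0.42 to 0.28) and Dhx58 (-0.45 to 0.24) bound any change of these genes on the log2 scale. Tlr3 (-0.46 to 0.37) and Sting1 (-0.70 to 0.37) were measured less closely. In TPM, which has no TMM scaling, Rigi was 97.2 to 103 in induced knockdown and 87.8 to 89.8 in induced control libraries, without overlap. Mavs and Cgas (2.53 to 3.18 in induced knockdown, 1.93 to 2.35 in induced control libraries) did not overlap in TPM either. The TMM factors were 1.11 to 1.12 in induced knockdown and 1.04 to 1.05 in induced control libraries, and in TMM-scaled CPM the groups overlap.

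The siRNA effect differed between the states for 4 of the 10 genes, against 22.5% of all tested genes. The difference, induced minus uninduced, was -2.04 on the log2 scale for Dhx58 (SE 0.435, adjusted p = 0.00250) and -1.65 for Ifih1 (SE 0.477, adjusted p = 0.0189). For Dhx58 it was called under all 21 alternatives. For Ifih1 it was lost without uninduced control replicate 2 (-1.61, adjusted p = 0.0509) or uninduced knockdown replicate 3 (-1.37, adjusted p = 0.0825). Zbp1 passed too (adjusted p = 0.00472), but its uninduced groups hold 11 and 0 summed counts, and the fitted difference gives no size. Irf3 moved the other way, by 0.72 (SE 0.238, adjusted p = 0.0420), and lost the call under 10 of 21 alternatives, with adjusted p-values up to 0.112. Sting1 (-0.87, adjusted p = 0.103) passed without uninduced control replicate 3 (-1.21, adjusted p = 0.0119). The siRNA effect on Zfp143 itself differed by 1.22 (SE 0.257, adjusted p = 0.00358), so the compared states differ in how far the target was lowered.

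**Figure D4:**
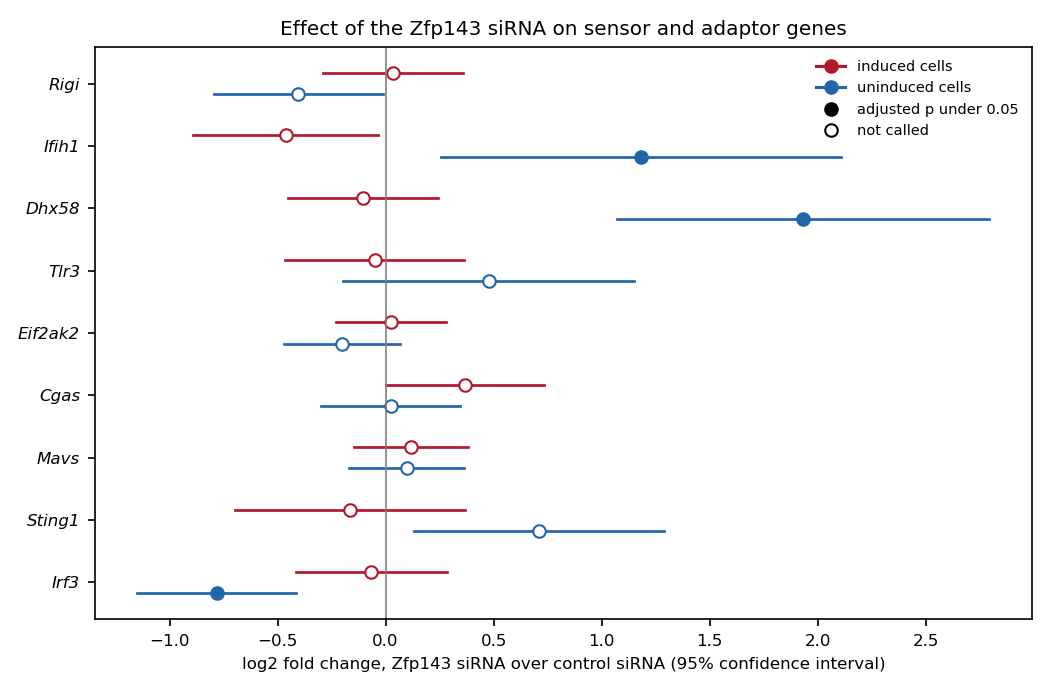
Log2 fold change of the Zfp143 siRNA against the control siRNA for 9 of the genes, in induced and in uninduced cells, with 95% intervals as bars and filled points for an adjusted p under 0.05. Dhx58 and Ifih1 lie above 0 and Irf3 below 0 in uninduced cells, and the induced intervals of Dhx58 and Irf3 include 0. Zbp1 is left out because uninduced control cells had no counts.

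The rest of the pathway was described over 7 lists of 109 genes. Of the 20 interferon-stimulated outputs, genes that interferon switches on, all 20 were higher with induction under either siRNA. Of all tested genes, 36% were higher under the Zfp143 siRNA and 33.2% under the control siRNA. The median log2 fold change of the 20 was 6.55 with the Zfp143 siRNA and 9.30 with the control siRNA (9.05 with a gene without counts at its bound). Ifit3, an inhibitor of viral RNA translation, averaged 1290 ± 119 CPM in induced control and 0.0838 ± 0.102 CPM in uninduced control libraries (SD, n = 3 each). In uninduced cells 9 of the 20 were higher with the Zfp143 siRNA, against 15.4% of all tested genes, and the median of the 20 was 1.45. With only the uninduced libraries modelled, 13341 genes were tested, and the 15.4% is not the share of that model. Ifi44l had no counts in these libraries and could not be tested there, and 6 of the list were called. Among them the RNA-binding Ifit1 averaged 9.24 ± 1.14 CPM in knockdown and 1.13 ± 0.139 CPM in control libraries, and the chemokine Ccl5 averaged 1.38 ± 0.0590 and 0.0726 ± 0.0829 CPM. In induced cells 9 of the 20 were lower with the siRNA, against 5.77% of all tested genes, and the median of the 20 was -0.59. Rsad2, the antiviral enzyme viperin, averaged 5.92 ± 1.03 CPM in induced knockdown and 42.7 ± 3.11 CPM in induced control libraries (log2 fold change -2.85, SE 0.192, adjusted p = 8.62e-07). Some of the 20 were near 0 in uninduced cells and entered the test through the induced libraries. Rsad2 had 10 and 2, and Mx1 22 and 3, summed counts in uninduced knockdown and uninduced control libraries. Where such genes are called, the call rests on these few counts. With that limit, 12 of the 20 genes had a lower siRNA effect in induced than in uninduced cells, against 11.8% of all tested genes. In the opposite direction of each of these counts of called genes, 0 were called by edgeR, DESeq2 or limma-voom, and 0 had an unadjusted p under 0.05.

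Of 14 tested other sensors, 8 were higher and 2 lower with induction under the Zfp143 siRNA, and 9 and 2 under the control siRNA. Of all tested genes, 36% were higher and 30.1% lower under the Zfp143 siRNA, and 33.2% and 30.9% under the control siRNA. Oas2, which makes the activator of RNase L when it binds double-stranded RNA, averaged 106.6 CPM in induced knockdown and 201.3 CPM in induced control libraries and had no counts in any uninduced library, so it was at least 617-fold and 1151-fold higher. Aim2, an inflammasome sensor of DNA, fell, to 7.67 ± 2.12 CPM in induced knockdown against 13.0 ± 1.81 CPM in uninduced knockdown (log2 fold change -0.75, SE 0.198, adjusted p = 0.00367). With the siRNA, 1 of the 14 was higher and 5 lower in induced cells, and 4 were higher and 1 lower in uninduced cells. Of all tested genes, 9.49% were called in induced and 32.5% in uninduced cells, and the uninduced share of the list is near the latter. Oas1g, Oas3 and Oas1a led those lower in induced cells, with log2 fold changes of -1.76, -1.08 and -0.94. Oas1a, Oas1b and Oas1g are close copies, so reads may be split among them. Nod2, which senses bacterial cell wall and has been linked to viral RNA, was higher with the siRNA in both states (0.68, SE 0.175, adjusted p = 0.0219, in induced and 1.63, SE 0.177, adjusted p = 1.19e-05, in uninduced cells).

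Of 16 tested adaptors and signalling proteins, 4 were higher and 6 lower with induction under the Zfp143 siRNA, and 3 and 4 under the control siRNA, shares no higher than the 66.1% and 64.1% of all genes. Trim25, a ubiquitin ligase that acts on RIG-I, rose by 2.01 (SE 0.115, adjusted p = 1.25e-09) with the control siRNA, while Tomm70a, an outer mitochondrial membrane import receptor, fell by 1.49 (SE 0.154, adjusted p = 8.60e-07) on the log2 scale. Tbk1, the kinase of IRF3, and Ticam1, the TLR3 adaptor, passed in none of the 5 comparisons. The siRNA raised Ikbkg (0.53) and Traf6 (0.47) on the log2 scale in uninduced cells. In induced cells Tbkbp1 was called on 3 counts in each knockdown library against none in control libraries, which is at the floor, and it entered the test through the uninduced libraries.

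Of 11 transcription factors of the pathway, 8 were higher and 1 lower with induction under either siRNA. Of all tested genes, 36% were higher and 30.1% lower under the Zfp143 siRNA, and 33.2% and 30.9% under the control siRNA. Irf7, which sustains type I interferon, averaged 164 ± 40.0 CPM in induced knockdown and 256 ± 34.1 CPM in induced control, against 0.542 ± 0.310 CPM in uninduced knockdown and 0.0945 ± 0.0596 CPM in uninduced control libraries. It was lower with the siRNA in induced cells (log2 fold change -0.64, adjusted p = 0.0411) and called higher in uninduced cells (2.40, adjusted p = 0.0140) on 8, 15 and 5 counts in knockdown against 3, 1 and 1 in control libraries, too few to be tested with only the uninduced libraries modelled, and the difference between the states was -3.04 (SE 0.835, adjusted p = 0.00601). In uninduced cells the siRNA raised 6 of the 11, Stat2 (0.90) and Irf1 (0.89) among them, and lowered Irf2 (-0.69). The 6 include Irf7, with the limit just given. Of all tested genes, 15.4% were higher and 17.1% lower. In induced cells Irf7 was the 1 factor of the 11 that fell, while 5.77% of all tested genes were lower.

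Interferon transcripts themselves were few. Ifnb1 had 2, 3 and 9 counts in induced knockdown and 12, 10 and 8 counts in induced control libraries, none in any uninduced library, and was not tested. Ifng, the type II interferon, averaged 0.647 ± 0.388 CPM in induced knockdown and 2.36 ± 0.629 CPM in induced control libraries, was lower with the siRNA (log2 fold change -1.81, SE 0.492, adjusted p = 0.0394) and had no counts in uninduced libraries. Cd3e, which marks T cells, was at 0 in both induced groups, and which cells carried the Ifng transcripts was not tested. Of 8 tested interferons, receptors and receptor kinases, 7 were higher with induction under the Zfp143 siRNA and 6 under the control siRNA. Of all tested genes, 36% and 33.2% were higher in these comparisons. Ifnar1, a chain of the type I interferon receptor, averaged 51.2 ± 2.40 CPM in uninduced knockdown and 87.7 ± 2.67 CPM in uninduced control libraries (log2 fold change -0.78, SE 0.103, adjusted p = 6.71e-05). Its siRNA effect differed by 0.90 between the states (SE 0.145, adjusted p = 0.000478). Ifnar2, the other chain, had siRNA log2 fold changes of -0.06 (adjusted p = 0.801) in induced and 0.03 (adjusted p = 0.837) in uninduced cells.

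Of 19 tested inhibitors of sensing, 13 were higher and 2 lower with induction under the Zfp143 siRNA, and 15 and 3 under the control siRNA. Of all tested genes, 36% were higher and 30.1% lower under the Zfp143 siRNA, and 33.2% and 30.9% under the control siRNA. Usp18, which damps interferon receptor signalling, averaged 121 ± 14.9 CPM in induced knockdown and 165 ± 22.0 CPM in induced control, against 0.113 ± 0.113 CPM in uninduced knockdown and 0.0730 ± 0.0839 CPM in uninduced control libraries. In uninduced cells the siRNA raised 6 of the 19 and lowered 3, while 15.4% of all tested genes were higher and 17.1% lower. Tnfaip3, the deubiquitinase A20, averaged 73.0 ± 2.22 CPM in knockdown and 13.3 ± 2.61 CPM in control libraries (log2 fold change 2.45, SE 0.140, adjusted p = 3.45e-08). Adar, which edits double-stranded RNA so that MDA5 and PKR bind it less, averaged 56.5 ± 3.17 CPM in knockdown and 88.6 ± 16.7 CPM in control libraries (-0.65, SE 0.145, adjusted p = 0.00339). In induced cells 5 of the 19 were lower with the siRNA, against 5.77% of all tested genes. Trim30a fell the most (-2.02, SE 0.145, adjusted p = 2.84e-06). Among 6 other genes of the eIF2 branch, which PKR feeds, 1 rose and 2 fell with induction under the Zfp143 siRNA, and 1 rose and 3 fell under the control siRNA. These shares are near or below the 66.1% and 64.1% of all tested genes. Ppp1r15a, a phosphatase subunit that reverses eIF2 phosphorylation, averaged 62.0 ± 4.05 CPM in induced knockdown and 99.2 ± 4.38 CPM in induced control, against 575 ± 22.4 CPM in uninduced knockdown and 557 ± 85.8 CPM in uninduced control libraries.

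**Figure D5:**
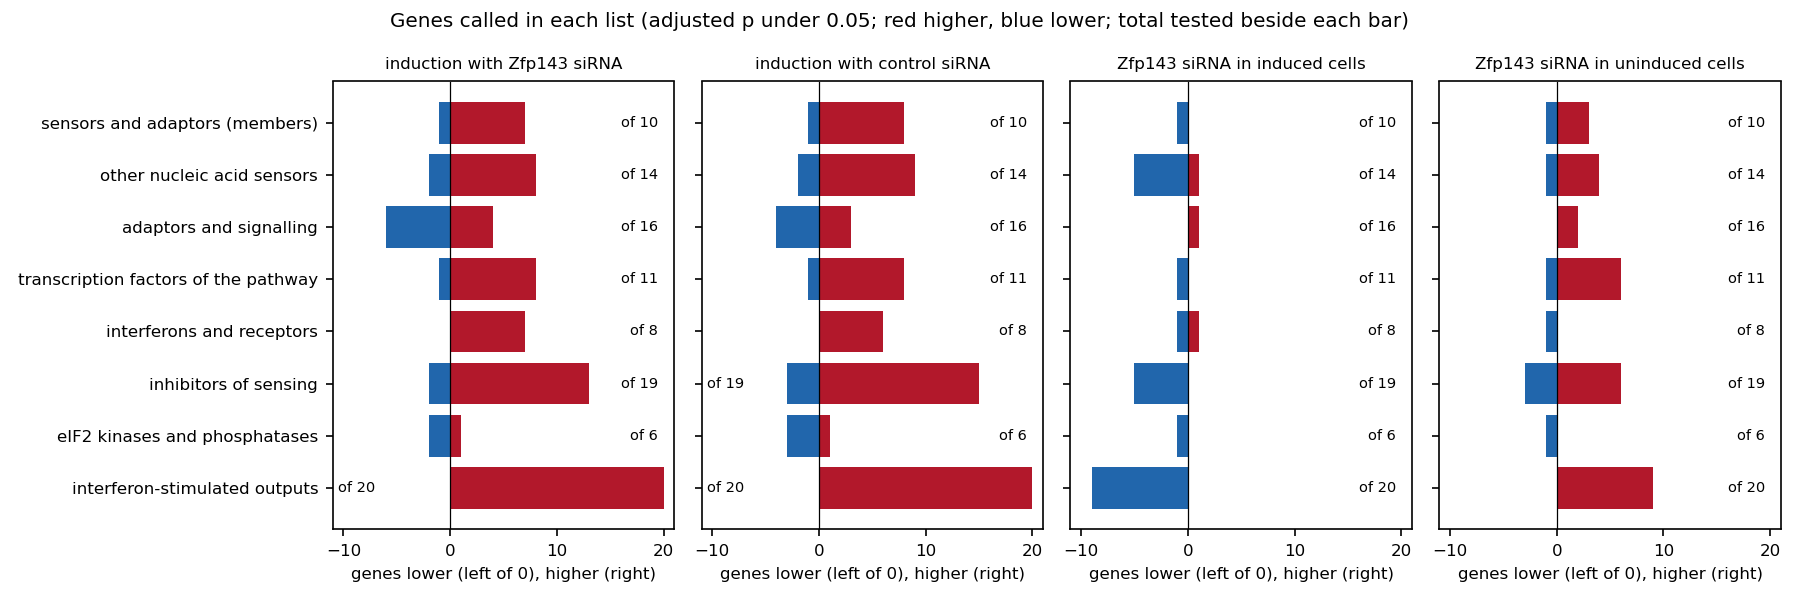
Number of genes higher (right of 0) and lower (left of 0) at an adjusted p under 0.05 for the 10 genes and the 7 pathway lists, in the siRNA and induction comparisons. The interferon-stimulated outputs reach 20 higher in both inductions, 9 higher with the siRNA in uninduced cells and 9 lower with it in induced cells. Of all tested genes, 36% and 33.2% were higher with induction under the Zfp143 and control siRNA. With the siRNA, 15.4% were higher in uninduced and 5.77% lower in induced cells.

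Likeness of pattern was measured as the root mean square difference of the 4 group means, as log2 CPM centred on each gene, over genes with at least 5 CPM in a group, so the smallest values mark the closest genes. A prior count of 2 was added before taking logs, which draws levels near 0 together. Psmb9, a subunit of the immunoproteasome, was among the 3 genes nearest to Rigi (0.151). It averaged only 0.0197 CPM in uninduced knockdown and 0.0728 CPM in uninduced control libraries, so this nearness depends on the prior count. Irf7 lay closest to Zbp1 (0.145), and both are near the floor in uninduced cells, so the same limit holds. C3, a complement component, lay closest to Dhx58 (0.0776), with Mx1, an antiviral GTPase also near the floor in uninduced cells, next (0.196). Medag (0.103) and then Actn3 (0.149), a sarcomere protein, lay closest to Ifih1. The collagen gene Col6a1 lay closest to Tlr3 (0.0588), and Bicc1 closest to Eif2ak2 (0.0698). Srm, which makes spermidine, lay closest to Cgas (0.0431), Kcnn1 closest to Sting1 (0.0385), Ilrun closest to Mavs (0.0129) and Shfl closest to Irf3 (0.0192). The measure is smaller for genes that move little, so it does not rank likeness between members.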

How the data were processed

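Polyadenylated RNA of 12 C2C12 libraries was sequenced with a kit that does not keep strand, per the labels' protocols. Per the submitters' processing notes, fastp 1.0.1, STAR 2.7.11b, Salmon and the build GRCm39 were used; the version of Salmon and the release of the annotation were not given in the sources used. The deposited table gives for each gene and library an estimated count made by the authors, a TPM score and an effective transcript length in bases. It also holds 12 columns of FPKM, which were not used. Of 78810 lines, 535 repeated a gene ID and were dropped.

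The counts were first rounded to whole numbers and genes filtered by filterByExpr (minimum count 10, minimum total 15), and edgeR 4.0.16 fitted a single model with a mean for each group to the 12 libraries (TMM scaling, robust quasi-likelihood, 8 residual degrees of freedom), in R 4.3.3. P-values were adjusted over all 15030 tested genes within each of 5 comparisons, and an adjusted p under 0.05 is a call. The steps were tested on simulated data for the siRNA comparison in uninduced cells only, with changes placed in well-counted genes. Changes in genes near 0 counts, induction and the interaction were not covered. Alternatives were limma 3.58.1 (voom), DESeq2 1.42.0, other scalings and filters, a transcript length offset, a replicate block and leaving out libraries. TPM was used to compare genes, CPM to compare groups. An exact permutation test of 3 against 3 libraries cannot go below 0.1. Intervals are 95%.

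The members, lists and rules were chosen with earlier results of these data known. Named were the 10 members, Zfp143, Ifnb1, Irf7, Stat2, Tbk1, Ticam1, Ifnar1, Ifnar2, up to 3 genes of largest change per list and direction, and genes nearest in pattern; 1 gene that the rule names is not reported here. Promoters come from RefSeq (GRCm38.p6), and no coordinates were carried between builds.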

Additional observations from a re-analysis of the deposited data

Results flagged for a closer look

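For 4 of the 10 genes and for Zfp143 a direct test, the interaction of siRNA and induction in edgeR's quasi-likelihood model, found that the siRNA effect differed between induced and uninduced cells, as it did for 22.5% of all tested genes. The log2 difference, induced minus uninduced, was -2.04 for Dhx58 (SE 0.435, adjusted p = 0.00250), whose siRNA effect was -0.10 in induced and 1.93 in uninduced cells. For Ifih1 it was -1.65 (SE 0.477, adjusted p = 0.0189), with effects of -0.46 in induced and 1.18 in uninduced cells, and the call was lost under 2 of 21 alternatives. Zbp1 gave -5.62 (adjusted p = 0.00472), a fitted value that depends on the prior count because uninduced control libraries had no counts and uninduced knockdown libraries 11 in all. Irf3 gave 0.72 (SE 0.238, adjusted p = 0.0420), with effects of -0.07 in induced and -0.78 in uninduced cells, and lost the call under 10 of 21 alternatives. Zfp143 gave 1.22 (SE 0.257, adjusted p = 0.00358), with effects of -0.18 in induced and -1.41 in uninduced cells.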

How the results depend on the processing

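Over all alternatives, 211 summary values stayed within 1.5 times of the reported one and 9 did not. Called members of the siRNA comparison in uninduced cells were 4, and 2 when the model held just the uninduced libraries. Leaving out both libraries that stand apart (uninduced control replicate 3 and induced knockdown replicate 1) gave 2525 called genes for the siRNA in induced cells, against 1427, and 5755 for the interaction, against 3375. Leaving out 1 library at a time gave 0 to 1 called members for the siRNA in induced cells, 3 to 5 in uninduced cells, 8 in every case for induction with the Zfp143 siRNA, 9 in every case with the control siRNA and 2 to 5 for the interaction. Over all genes the counts were 901 to 2014 (lowest without induced control replicate 2), 3492 to 5780, 9147 to 10779, 8917 to 10176 and 2506 to 4750 in that order. Among single genes, 11633 values kept their direction and their side of the threshold, 258 lost a call and 207 gained one. The 2 that reversed were both Tank without the libraries that stand apart, 0.26 with the siRNA in uninduced cells (adjusted p = 0.0445) and 0.35 with induction under the control siRNA (adjusted p = 0.0043); the cause was not tested. The labels do not say that replicate numbers pair libraries. Deviations from group means correlated between -0.0963 and 0.306 for same-numbered and between -0.279 and 0.249 for different-numbered libraries. These ranges overlap and cannot show whether the libraries were paired. The main fit was unpaired, with a replicate block as an alternative. A replicate block left Ifih1 in uninduced cells at an adjusted p of 0.0543 and changed no other call of the 10 genes. Depth limits Ifih1, Dhx58, Tlr3 and Zbp1 in uninduced cells, where counts per library were at most 38.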

Other observations

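Of the 10399 tested genes with a promoter window, 15.2% were higher and 18.7% lower with the Zfp143 siRNA in uninduced cells. Of the 180 tested genes whose window holds the stretch CCCAG, any base, ATGC, found in Irf3, 16 (8.89%) were higher and 43 (23.9%) lower, and of the 509 with ACTACAA, the stretch found in Cgas, 10.4% were higher and 21.4% lower. Of the 394 with the ISRE core, 16.2% were higher and 19.0% lower. Irf3 is counted among the 180, and its stretch was added to the search after its sequence had been read. In induced cells 5.56% of the 180 were higher and 6.11% lower, against 3.99% and 5.78% of the 10399. Of the 509, 4.32% were higher and 4.52% lower there, and of the 394, 5.08% and 9.39%. These shares are descriptions of windows that can hold more than 1 motif, with no test.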
